A study of Pleurodeles waltl with 9 samples.

Results

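The first day of the response to lens removal was examined in the dorsal iris of P. waltl, the Iberian ribbed newt, by setting irises at 1 day post-lentectomy (dpl) against irises of intact eyes. Newts rebuild a lens after the whole organ is taken out, and the new lens arises from pigment epithelial cells of the dorsal iris, which lose their pigment, re-enter the cell cycle and change into lens cells. The ventral iris lies in the same eye and normally makes no lens. The first day belongs to the wound phase, before a lens vesicle is visible, so values from it describe the tissue at the start of this process.

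The 1 dpl group held 3 libraries from lentectomized eyes, and the intact group held 2 libraries from eyes that had not been operated on. All animals were 13 months old, and the labels give neither a genotype nor a drug treatment for any group. Each library was made from polyA RNA of dorsal irises pooled from 4 animals, so that 1 library stands for 1 pool and not for 1 newt. Intact replicate 3 was left out by the study for its alignment rate, and here it was kept out of the test and is shown as a check. The 3 libraries at 4 dpl entered the model to estimate the spread, which makes 8 libraries in the fit and 5 in the comparison, of 9 in all.

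The deposited table gave 1 normalized value per transcript and library, on a scale larger than TPM. Column totals were 20405697, 20181840 and 22023433 at 1 dpl, against 19335182 and 19534870 in intact irises, and 17541441 in intact replicate 3. With each of the 5 totals set to 1000000, a deposited value of 20 would be 0.908 to 1.03, and values of 100, 1000 and 10000 would be 4.54 to 5.17, 45.4 to 51.7 and 454 to 517. The read depth behind a value is unknown, because the table holds no counts. A transcript was analysed if its value averaged at least 20 over the 5 libraries, and 45043 of 295141 transcripts did so. The nearest transcript inside this minimum averaged 20.0008, and the nearest outside averaged 19.9997. The 45043 transcripts held between 96.5% and 98.7% of each of the 5 column totals, and 89.3% of that of intact replicate 3. They comprised 22790 transcripts whose IDs begin with mRNA, taken here as annotated, and 22253 whose IDs begin with MSTRG, the prefix StringTie gives to transcripts it assembles. IDs are not paired with gene names in the table, and 0 of them occurred among the 59059 genes of the RefSeq table for assembly aPleWal1.hap1.20221129. The tissue label could therefore not be checked against markers of pigment epithelium, lens or blood cells, and the transcripts below are described by their values, abundance and kind of ID. A lower value in such bulk tissue can come from fewer cells of a type or from less RNA per cell, and these cannot be told apart.

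At 1 dpl, 4378 of the 45043 transcripts, or 9.72%, differed from intact irises. Of these, 2793 (6.20% of those tested) were higher and 1585 (3.52%) were lower at 1 dpl, so rises made up 63.8% of the calls. The median change was a 4.11-fold rise among the transcripts that were higher and a 3.78-fold fall among those that were lower. A called transcript had an adjusted p under 0.05 in limma on log2(value + 1), with Benjamini-Hochberg adjustment over all 45043. The pseudocount of 1 shrinks the fold changes of low values. Without intact replicate 1 the number called was 1380, and without intact replicate 2 it was 1536, in fits that assume the lone intact library to vary like the other groups. With only the 5 libraries compared in the model, 2651 transcripts were called, 1819 of them higher and 832 lower. Rises made up 68.6% of the calls in that fit. The share was 55.6% after rescaling each column to a total of 1000000 and 56.4% after quantile normalization, so the excess of rises depended on scaling.

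Called changes covered a wide range of sizes. Only 322 of the 2793 rises and 163 of the 1585 falls were smaller than 1 on the log2 scale, and 1037 rises and 681 falls lay between 1 and 2. Rises of 3 or more on the log2 scale numbered 698, and falls of that size numbered 290. At 5 or more there were 151 rises and 13 falls. Across all transcripts tested, whether called or not, the median change was 0.01 and the quartiles were -0.76 and 0.81 on the log2 scale. In every called transcript the 1 dpl and intact values were apart. Such a gap was common, however, with the 1 dpl values above the intact ones in 22.2% of all transcripts tested and below them in 21.6%.

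Few of the transcripts tested were listed at 0 throughout either group. Of the 45043 transcripts, 44 were listed at 0 in both intact libraries, and 35 of these were called higher at 1 dpl, against 6.20% of all tested. These 44 could reach the minimum only through 1 dpl, so a rise was their only possible direction. No transcript of the 45043 was listed at 0 in all 3 libraries of 1 dpl. A value of 0 in this table can be a failed estimate as well as an absent transcript, and no fold is given for these. Most members had an average of at least 20 in both groups, namely 37461, and 2178 of these rose and 1334 fell. A further 5018 reached 20 only at 1 dpl, of which 615 were called higher, and 2564 reached it only in intact irises, of which 251 were called lower. Those last 2 sets entered through the group in which they were high, so their direction was fixed by the minimum.

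**Figure D1:**
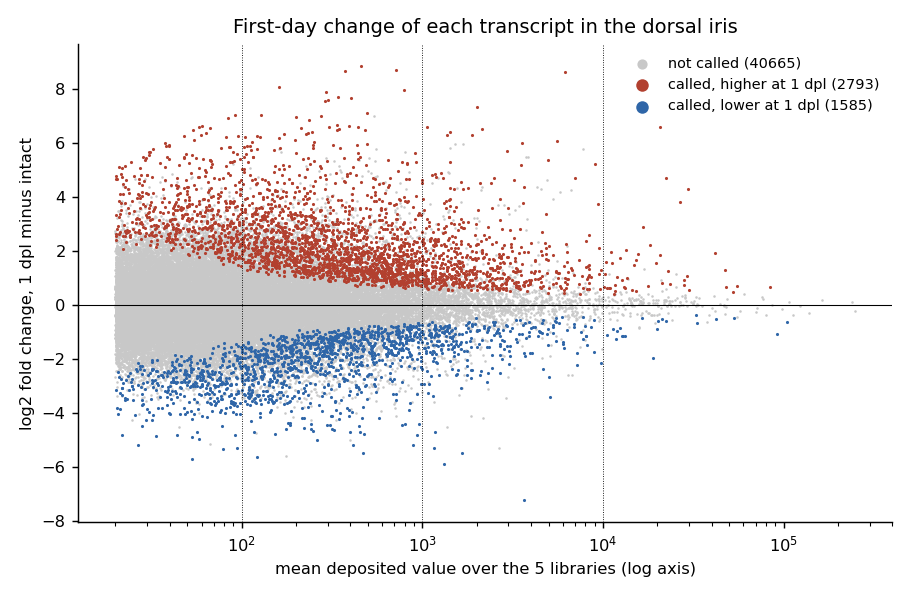
Each point is a transcript, with its mean deposited value over the 5 libraries on the x axis (log axis) and its log2 fold change, 1 dpl minus intact, on the y axis. The 2793 transcripts called higher and the 1585 called lower are coloured, dotted lines part the abundance classes, and the band of grey points narrows as the value grows.

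The share of transcripts called was greater in abundant classes, and called changes were smaller there. Transcripts were divided by their mean value over the 5 libraries into classes of 20 to 100, 100 to 1000, 1000 to 10000, and 10000 and more. The classes held 23672, 18528, 2611 and 232 transcripts. In the lowest class 3.79% were called, in the next 14.1%, in the class of 1000 to 10000 30.5%, and in the highest 28.0%. The median size of a called change was 2.95 on the log2 scale in the lowest class and 1.87, 1.27 and 0.923 in the classes above it. Residual spread moved with the class as well, with a median SD of 0.883 in the lowest class and 0.485, 0.221 and 0.153 in the classes above it. Its part in the shares called was not tested. At values of 1000 and more the share called was 26.5 percentage points greater than under 100, and this difference was 8.18 points in a model without the intensity trend.

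A step was also present above 100 when the classes came from libraries outside the comparison. With transcripts classed by their mean at 4 dpl, 4.70% were called under 20, 4.54% from 20 to 100, 13.4% from 100 to 1000, 29.1% from 1000 to 10000 and 31.7% at 10000 and more. Classed by the intact mean, which the comparison itself used, the shares in the same order were 12.3%, 4.52%, 12.2%, 26.9% and 23.0%, so the shares did not climb throughout. By that mean, 10.8% were higher and 16.0% lower from 1000 to 10000, and 7.21% and 15.8% at 10000 and more. The balance of rises and falls within a class thus depended on how the class was made. Changes above 1 on the log2 scale were less frequent among abundant transcripts, at 42.3% of the lowest class and 14.2% of the highest. Of such changes, however, 8.95% were called in the lowest class and 90.9% in the highest. Values between 20 and 100 thus contained 10013 changes of this size, most of which could not be told from the spread between pools.

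**Figure D2:**
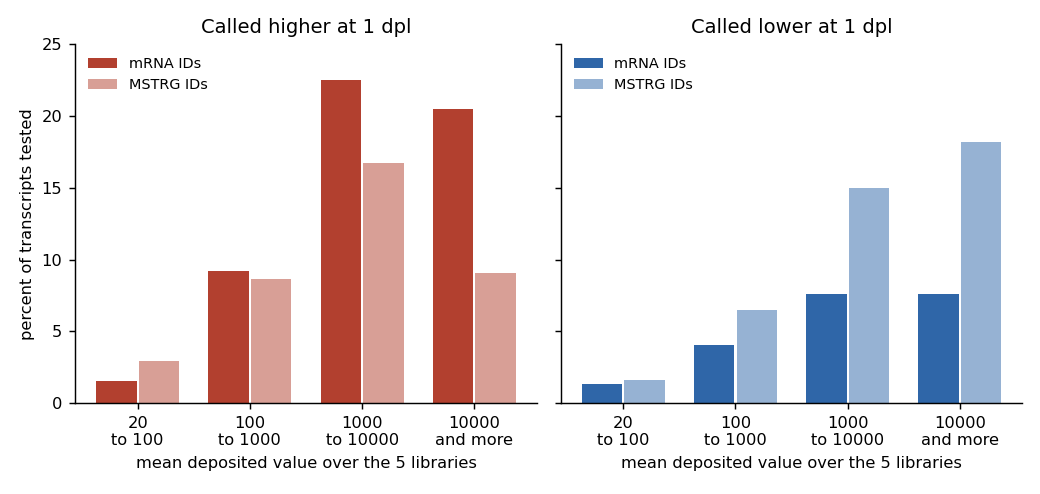
Bars give the percentage of tested transcripts called higher (left) and lower (right) at 1 dpl in 4 classes of mean deposited value, for mRNA IDs (full colour) and MSTRG IDs (pale). In the class of 1000 to 10000, 22.5% of mRNA IDs and 16.7% of MSTRG IDs were higher, while 7.59% of mRNA IDs and 15.0% of MSTRG IDs were lower; the highest class holds only 22 MSTRG IDs.

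Annotated and assembled transcripts were called at similar rates, and the direction of their calls differed by abundance. Of the mRNA IDs, 2267 or 9.95% were called, and of the MSTRG IDs, 2111 or 9.49%, against 9.72% of all. The difference of 0.461 percentage points had a 95% interval, for counting error only, from -0.086 to 1.01. This interval takes transcripts as independent, which they are not, and leaves out the variation between pools, so it does not test the difference. Among the mRNA IDs called, 68.6% were higher at 1 dpl, with 1556 rises and 711 falls. Among the MSTRG IDs called, 58.6% were higher, with 1237 rises and 874 falls. From 20 to 100 the order was the opposite, with 53.5% of mRNA calls and 64.1% of MSTRG calls higher. These shares are descriptions without a test, since transcripts are not replicates of a condition.

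The 2 kinds of ID differed in abundance, and within classes the picture changed. Of the MSTRG IDs, 58.6% lay in the lowest class, compared with 46.7% of the mRNA IDs. Within the lowest class 4.55% of MSTRG IDs and 2.85% of mRNA IDs were called, and from 100 to 1000 the shares were 15.1% and 13.3%. From 1000 to 10000 they were 31.7% and 30.1%, and at 10000 and more, where only 22 MSTRG IDs were tested, 27.3% and 28.1%.

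Rises and falls are therefore given by class. Between 1000 and 10000, 109 of 726 MSTRG IDs (15.0%) and 143 of 1885 mRNA IDs (7.59%) fell. The background was 9.65% in this class and 3.52% over all transcripts tested. Rises in that class took in 121 MSTRG IDs (16.7%) and 424 mRNA IDs (22.5%), against 20.9% of the class and 6.20% of all. The share lower was greater for MSTRG IDs, and the share higher was greater for mRNA IDs, in this class under each of the 25 alternatives run. None of these took the classes from the 4 dpl or the intact mean. By the 4 dpl mean, 22.3% of mRNA IDs and 22.1% of MSTRG IDs in this class were higher, nearly alike, and 5.80% and 10.1% were lower. By the intact mean, 12.6% of mRNA IDs and 6.78% of MSTRG IDs were higher, and 12.1% and 24.9% were lower. In the class of 20 to 100 by the mean over the 5 libraries, 2.92% of MSTRG IDs and 1.52% of mRNA IDs rose. There the share higher was greater for mRNA IDs in 0 of 24 alternatives. From 100 to 1000 it was greater for mRNA IDs in 20 of 25. With intact replicate 3 added to the model, the shares lower from 1000 to 10000 were 9.37% for MSTRG IDs and 3.5% for mRNA IDs. Over all classes together, median rises were 2.42 and 1.76 on the log2 scale for MSTRG and mRNA IDs, and median falls were -2.04 and -1.78. Within classes the rises differed less, at 3.17 and 2.88 from 20 to 100 and 2.10 and 1.80 from 100 to 1000. From 1000 to 10000 the median rises were 1.48 and 1.25, and the median falls -1.44 and -1.05. At 10000 and more, with 2 MSTRG rises, the order of rises turned, at 0.67 and 1.05.

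MSTRG IDs name a locus before the last point, so their transcripts could be added up by locus. The 22253 MSTRG transcripts came from 11678 loci, of which 4697 had more than 1 transcript tested and 1 had 46. Among the 4697, calls were found at 987 loci, with rises alone at 534, falls alone at 435 and both directions at 18. Over all transcripts tested 9.72% were called, 6.20% higher and 3.52% lower. A locus with more transcripts tested has more occasions for a call, so the locus counts cannot be set directly against these shares. Of 224 loci with at least 2 calls, 206 had all their calls in one direction. Transcripts of one locus share reads, so their values are not separate measurements.

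Summed by locus, MSTRG IDs were called more often than single mRNA transcripts, except at 10000 and more. In a fit of MSTRG locus sums together with single mRNA transcripts, 5448 of 34687 units, or 15.7%, were called. Of the 11897 locus sums, 20.3% were called, 1276 higher and 1141 lower, and of the mRNA transcripts, 13.3%. From 1000 to 10000, 238 of 983 locus sums fell (24.2%) and 204 rose, while 176 of 1885 mRNA transcripts fell (9.34%) and 472 rose. At 10000 and more, 24.1% of 29 locus sums and 29.5% of 210 mRNA transcripts were called. The median residual SD in that fit was 0.384 for locus sums and 0.663 for mRNA transcripts. The mRNA IDs carry no locus and were not added up, which makes the units unlike. Without summing, loci with a single tested transcript also gave more calls than loci with several, at 11.6% and 8.54% of their transcripts, and had a lower median residual SD, 0.503 against 0.852. From 1000 to 10000 the shares were 31% and 32.1%.

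The calls were also sized by the share of each column total that they held. The 2793 transcripts called higher held 19.4%, 19.8% and 19.4% of the column totals at 1 dpl, against 7.88% and 7.91% in intact irises. The 1585 called lower held 5.04%, 5.32% and 4.73% at 1 dpl, against 12.6% and 12.1% in intact irises. These shares were fixed in direction by the calls and are given as sizes. In intact replicate 3, which the calls did not use, the transcripts called higher held 8.23% of the total, close to the other intact libraries. The transcripts called lower held 8.94% there, between the 1 dpl and the other intact libraries.

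**Figure D3:**
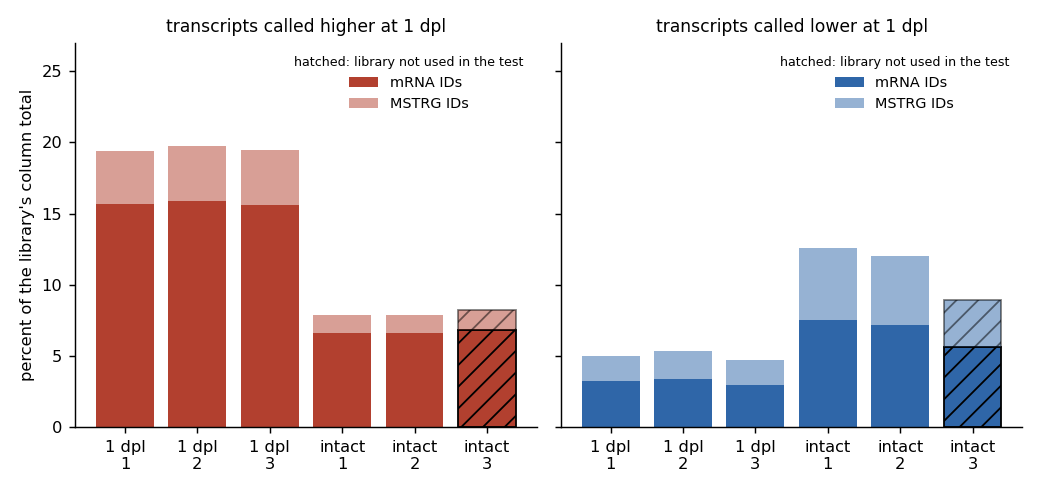
Bars give the percentage of each library's column total held by the transcripts called higher (left) and lower (right) at 1 dpl, divided into mRNA IDs (full colour) and MSTRG IDs (pale). Intact replicate 3 (hatched) was not used in the test and stands at 8.23% on the left, beside 7.88% and 7.91%, and at 8.94% on the right, below 12.6% and 12.1%.

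Most of the added and lost value came from transcripts of middle and high abundance. The classes were cut on the mean of the same values whose differences were summed. A greater contribution per transcript in abundant classes thus follows from how they were made, and the shares are given as sizes. Transcripts from 1000 to 10000 made up 19.5% of the rises and 45.0% of the summed gain, and those of 10000 and more made up 1.61% of the rises and 27.8% of the gain. For falls, these classes contributed 43.4% and 23.8% of the summed loss. The class of 20 to 100 held 19.4% of the rises and 1.64% of the gain. The 10 transcripts with the greatest gain held 13.3% of it, and the 100 with the greatest gain held 41.5%. The 100 with the greatest loss, of 1585 falls, held 49.8% of the loss.

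The upper end of the ranking changed in part. Of the 100 most abundant transcripts by group mean, 80 were common to 1 dpl and intact irises, and of the 1000 most abundant, 748 were. Single libraries of different groups shared 700 to 745 of their top 1000. Within 1 dpl, pairs of libraries shared 897, 853 and 871, and the 2 intact libraries shared 907, so the groups differed more from each other than their libraries did among themselves. Of the 252 transcripts that entered the top 1000 at 1 dpl, 169 were called higher, and of the 252 that left it, 96 were called lower. Entry and exit were set by the same group means that the calls compare, so the direction of these calls was largely fixed by the choice. Over all transcripts tested 6.20% were called higher and 3.52% lower, and in the class of 1000 to 10000 20.9% and 9.65%. The 10 most abundant transcripts held 7.06%, 6.59% and 6.45% of the totals at 1 dpl, against 7.53% and 8.43% in intact irises. This lower share at 1 dpl had p = 0.2 in a two-sided exact permutation test, the smallest p this test can give with 3 against 2 libraries. MSTRG IDs held 25.3%, 26.5% and 27.9% of the totals at 1 dpl, against 28.8% and 28.2% in intact irises, also with an exact permutation p of 0.2.

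Single transcripts changed far more than the median, with a 389-fold difference between the group means for mRNA143768. By a rule of the largest rise and fall for each kind of ID, among called transcripts above 0 in all 5 libraries, 4 transcripts are given by ID. Transcript mRNA143768 had values of 12621, 8724 and 9568 at 1 dpl, against 37.3 and 15.7 in intact irises. It was low in all intact libraries, including intact replicate 3 with 69.7. Its mean was 10304 ± 2049.8 (SD, n = 3) at 1 dpl and 26.5 ± 15.2 (SD, n = 2) in intact irises. In limma the change was 8.65 ± 0.36 (SE) on the log2 scale, with an adjusted p of 8.02e-05. At 4 dpl the same transcript stood at 18616, 26321 and 16106.

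The largest assembled rise was of lower abundance and more even among pools. Transcript MSTRG.38306.1 had values of 1227, 1224 and 1484 at 1 dpl, against 5.61 and 3.02 in intact irises. Intact replicate 3 gave 17.9, well under each 1 dpl library. The log2 change was 7.99 ± 0.36 (SE). With an intact mean of 4.32, this transcript reached the minimum of 20 only through 1 dpl, so its direction was fixed by the minimum and no p is given. At 4 dpl it stood at 197, 331 and 302, all below the 1 dpl values and above the intact ones. The difference between 4 dpl and 1 dpl was -2.27 on the log2 scale, in a comparison in which 4.90% of the 45043 transcripts were called. The transcript was chosen for its extreme value at 1 dpl, which favours a lower value at 4 dpl. A p would not allow for that choice, so none is given for this difference either.

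Among falls, transcript mRNA27188 had values of 58.5, 51.3 and 65.3 at 1 dpl, against 10329.7 and 7784 in intact irises. The log2 change in limma was -7.25 ± 0.44 (SE), and adjusted p was 2.18e-04. Intact replicate 3 had 380.4, above the 1 dpl libraries and far below the other intact ones, and with it in the model the change was -5.73. Values at 4 dpl were 87.5, 45.7 and 137.

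The largest assembled fall was uneven among pools. Transcript MSTRG.88986.1 had values of 232, 50.7 and 10.6 at 1 dpl, against 3584 and 2723 in intact irises and 1022 in intact replicate 3. The groups did not overlap, but the 1 dpl values differed more than 20-fold among themselves. Limma gave a log2 change of -5.91 ± 1.07 (SE) with an adjusted p of 0.0142, and adjusted p was 0.0975 without intact replicate 1 and 0.0783 without intact replicate 2. At 4 dpl it stood at 644, 1833 and 1207, and the sum over its locus changed by -2.74 at 1 dpl.

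**Figure D4:**
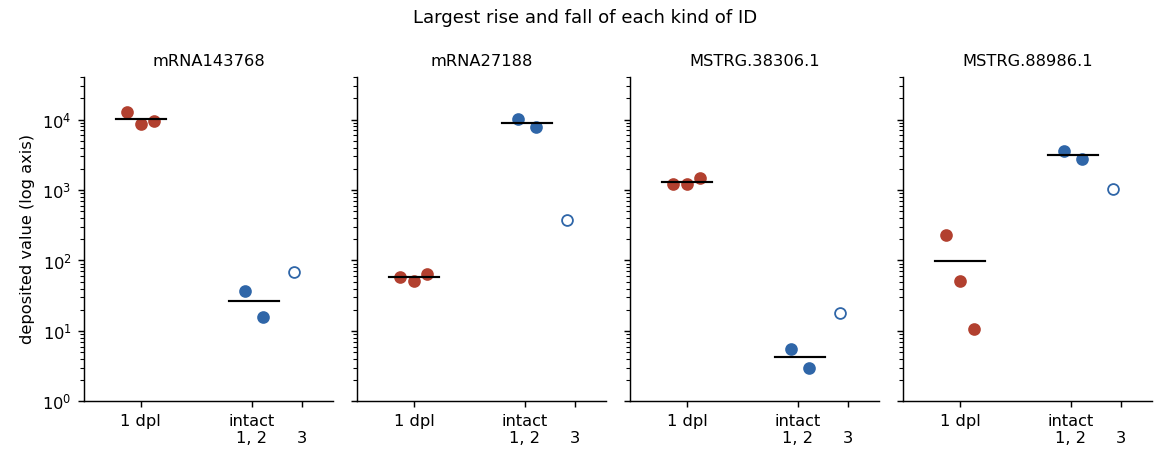
Points give the deposited value (log axis) of each 1 dpl library (red), each intact library in the test (blue) and intact replicate 3 (open) for the largest rise and fall of each kind of ID, and bars give the group means. For mRNA143768 and MSTRG.38306.1 intact replicate 3 lies near the other intact libraries, while for mRNA27188 (380.4) and MSTRG.88986.1 (1022) it lies between the groups.

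Among called transcripts above 0 in all 5 libraries, the 10 largest rises included 4 mRNA and 6 MSTRG IDs, with log2 fold changes between 6.66 and 8.65. Their means lay between 330.1 and 10304 at 1 dpl, against 1.55 and 26.5 in intact irises. The 10 largest falls also included 4 mRNA and 6 MSTRG IDs, with log2 fold changes between -7.25 and -5.20 and means of 3.46 to 97.7 at 1 dpl, against 193 to 9057 in intact irises. Intact replicate 3 lay below all 1 dpl libraries for 10 of the 10 rises and above all of them for 9 of the 10 falls. Over all calls the shares were 95.3% of the 2793 rises and 76.4% of the 1585 falls. With means as low as 1.55 in intact irises and 3.46 at 1 dpl, some of these transcripts reached the minimum only through the group where they were high. The counts for such extreme changes are therefore no separate check of the calls.

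Among the 232 transcripts of the highest class, 45 rose (19.4%) and 20 fell (8.62%), against 6.20% and 3.52% of all tested. All but 2 of the rises and 4 of the falls carried mRNA IDs, as did 210 of the 232 transcripts tested. The rises had a median of 1.00 on the log2 scale and reached 6.59, with 7 above 2, whereas the falls had a median of -0.87 and reached -1.95. The greatest of these rises, a transcript with an mRNA ID, had values of 35738, 33994 and 32611 at 1 dpl, against 337 and 372 in intact irises. Intact replicate 3 had 383, and the groups were more than 80-fold apart throughout. The balance of rises and falls in this class depended on scaling. With each column rescaled to a total of 1000000, 16.7% of 209 mRNA IDs were higher and 11.5% lower. Without rescaling, the shares were 20.5% and 7.62% of 210. Of the 21 MSTRG IDs in the rescaled class, 4.76% were higher and 23.8% lower.

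Further examples in this class were chosen after their values were seen. The greatest gain in value belonged to a transcript with an mRNA ID at 51748, 46394 and 44872 at 1 dpl, against 3012 and 1975 in intact irises. It changed by 4.29 ± 0.23 (SE) on the log2 scale (adjusted p = 1.59e-04, limma), and intact replicate 3 stood at 2343. The greatest loss belonged to another mRNA ID at 67806, 62263 and 59751 at 1 dpl, against 129342 and 140922 in intact irises. This was a fall to 0.468 of the intact mean (log2 change -1.10 ± 0.10 SE, adjusted p = 8.89e-04, limma), and intact replicate 3, at 153969, was on the side of the other intact libraries. The most abundant MSTRG ID that fell had values of 78248, 91687 and 85051 at 1 dpl, against 132714 and 132132 in intact irises. Here intact replicate 3, at 86042, fell among the 1 dpl values as deposited, which are not scaled to equal column totals. Its column total was 17541441, against 20405697, 20181840 and 22023433 at 1 dpl, so this overlap does not place it with either group.

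Across all calls, the excluded intact library sided with the intact group for rises more than for falls. Its position was measured on the log2 scale between the mean of intact replicates 1 and 2, set to 0, and the 1 dpl mean, set to 1. The median position was -0.02 for the 2793 rises and 0.45 for the 1585 falls. It lay nearer to the intact mean for 2393 rises (85.7%) and for 875 falls (55.2%). By abundance, the median position for falls was 0.29 from 20 to 100, 0.48 from 100 to 1000, 0.58 from 1000 to 10000 and 0.87 for 10000 and more. For rises it was 0.37 in the lowest class and between -0.23 and 0.02 in the others.

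Adding intact replicate 3 to the model gave 2836 rises and 1155 falls, and rises made up 71.1% of the calls. This library also stood apart in other values that bear on these positions. The positions were taken on values not scaled to equal column totals. Its column total, 17541441, was below the 19335182 to 22023433 of the 5 libraries compared. The 45043 transcripts held 89.3% of that total, against 96.5% to 98.7% in the 5 libraries. Intact replicate 3 listed 335 of the 45043 transcripts at 0, against 11 to 106 in the 5 libraries compared, and its smallest value above 0 was 1.53, against 0.260 to 0.382. The part of these values in the positions of rises and falls was not tested.

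**Figure D5:**
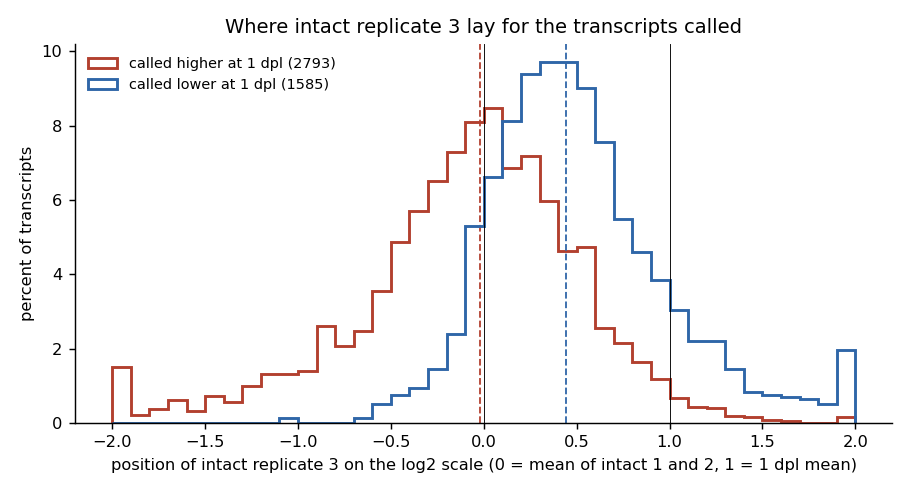
The x axis gives where intact replicate 3 lay on the log2 scale between the mean of intact replicates 1 and 2 (0) and the 1 dpl mean (1), the y axis the percentage of transcripts called higher (red) or lower (blue), and dashed lines the medians of -0.02 and 0.45. Values beyond the axis are gathered in the outermost bins.

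By correlation, the 1 dpl pools were less alike than the 2 intact ones used in the test. The median SD within a group was 0.632 on the log2 scale at 1 dpl and 0.361 in intact irises. These medians rest on 3 and on 2 libraries, so they are not like for like. Without 1 dpl replicate 3, which leaves 2 libraries in each group, the first value was 0.427. Correlations of log2(value + 1) over the 45043 transcripts, which are not independent replicates, were 0.818, 0.765 and 0.770 within 1 dpl and 0.853 between the 2 intact libraries. The lower values within 1 dpl were those of replicate 3, which also listed the most transcripts above 0, 131946, compared with 89307 and 115193. Between the groups the correlations lay between 0.645 and 0.727. Intact replicate 3 correlated at 0.745 and 0.764 with the other intact libraries, lower than each pair within 1 dpl. The likeness of the intact group thus holds for the 2 libraries kept. With 1 dpl replicate 3 left out, 3212 transcripts were called, 1988 of them higher and 1224 lower.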

How the data were processed

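RNA of the dorsal iris was sequenced from 9 pools, 3 each at 1 dpl, at 4 dpl and in intact eyes. The authors trimmed reads (Trim Galore), aligned them (STAR), assembled transcripts (StringTie, gffread) and quantified them (Salmon). Their versions, and which genome build was used, are not given in the sources used here. The deposited signal per transcript is named average TPM, and the methods describe TPM averaged over Salmon's inferential replicates. Columns sum to more than 1000000, however, and the factor behind this is not stated. No test of counts was possible.

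Values were taken as log2(value + 1) and fitted with limma 3.58.1 in R 4.3.3 (8 libraries, 3 groups, 5 residual degrees of freedom, intensity trend, Benjamini-Hochberg adjustment, threshold 0.05). The fit was also tested on simulated data, with bounds set on the direction and average size of planted changes, not on the share of them found. Tables and plots used pandas 2.3.3, scipy 1.17.1 and matplotlib 3.10.9. Columns were assigned by name and title. The members, classes and rules were chosen with earlier results of these data known. IDs are given for the largest rise and fall of each kind of ID, and marker lists were not run, as no ID had a name. Alternatives concerned the pseudocount, minimum, variance model, libraries, scaling, replicate block, locus sums, fold minimum and class definition.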

Additional observations from a re-analysis of the deposited data

Results flagged for a closer look

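For 2 of the 4 transcripts given by ID, the change from intact irises at 4 dpl was flagged against that at 1 dpl. Both differences were estimated in the same model. For MSTRG.38306.1 the change at 4 dpl minus that at 1 dpl was -2.27 on the log2 scale (standard error 0.32). All 3 libraries of 4 dpl lay below all 3 of 1 dpl. For MSTRG.88986.1 the difference was 4.44 (standard error 0.96), with all 3 libraries of 4 dpl above all 3 of 1 dpl. Both transcripts were chosen for an extreme value at 1 dpl, which favours a difference in this direction. MSTRG.38306.1 also reached the minimum mean value only through 1 dpl. A test on values chosen in this way cannot decide whether the changes differed, so no p is given.

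In intact replicate 3, which is outside the test, 6131 transcripts had a value of 20 or more while they were at 0 in all 5 libraries compared. They held 1.81% of its column total, and 58.1% of them carried MSTRG IDs. The corresponding number, of transcripts at 20 or more that were at 0 in the other 5 of these 6 libraries, was 150 in 1 dpl replicate 3 and at most 2 in each of the remaining 4. The cause was not tested.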

How the results depend on the processing

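The values reported were 4378 transcripts called, 2793 higher, 1585 lower, 63.8% of calls higher, 0.461 percentage points more calls among mRNA than MSTRG IDs, and 26.5 points more calls at values of 1000 and more than under 100. No ID called in both the reported fit and an alternative changed direction. Alternatives that altered only the intensity trend or a minimum left each log2 change as it was, so its direction could not turn there. With sums per StringTie gene only mRNA IDs could be matched, 2267 in number, since MSTRG transcripts were merged into loci. At 7 loci with calls in both directions the sum was called, so some of their transcripts went against it. The cause of the changes below was not tested.

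A minimum mean of 0.5 (154344 transcripts tested) gave 2035 calls, 1476 higher, 559 lower, 72.5%, 1.47 and 19.1 points, and no minimum gave 1961, 1413, 548, 72.1%, 1.22 and 18.1 points. With only the 5 libraries compared, 2651, 1819 and 832 were called (68.6%). A minimum log2 fold change of 1 gave 588, 494 and 94 (84%, 4.68 points for abundance). Without the intensity trend the difference between kinds of ID turned to -1.01 and that for abundance to 8.18 points, and with sums per StringTie gene they were -7.02 and 31.4 points (59.9% higher). The percentage higher was 58.1% with a pseudocount of 20, 61.7% with a minimum of 100, 61% with library weights, 71.1% with intact replicate 3 added (22.1 points for abundance), 55.6% after rescaling to a total of 1000000 and 56.4% after quantile normalization. The rescaling moved the median change of all transcripts from 0.01 to -0.10.

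With each library left out in turn, 1380 to 3825 transcripts were called, 1173 to 2504 higher and 207 to 1321 lower, with 61.9% to 85% higher and 13.7 to 26.7 points for abundance. The lowest counts were those without intact replicate 1 (1380) and intact replicate 2 (1536, with 292 lower), and without 1 dpl replicate 2 1046 were lower. MSTRG.88986.1 did not pass the test in 4 alternatives, and mRNA143768 and mRNA27188 passed in each alternative run. These transcripts were chosen as the largest calls from the same values, so passing is no separate support. For MSTRG.38306.1, whose direction was fixed by the minimum, only the log2 change is given, which lay between 5.77 and 8.34.

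With the replicate block, 1940 transcripts were called, 1390 higher and 550 lower (71.6%, 17.6 points for abundance). Deviations from group means correlated at -0.0832 to 0.00774 between libraries that share a number and at -0.056 to 0.0845 between others, and the sources describe no pairing. Depth limits these results in a way the table does not show, since it holds no counts.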
